A study of Homo sapiens with 36 samples.

Results

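Box H/ACA small nucleolar RNAs (SNORA) and small Cajal body RNAs (SCARNA) were followed in WiT49 cells, an anaplastic Wilms tumor line, through 3 lengths of exposure to actinomycin D. Members were the SNORA and SCARNA genes of GENCODE release 29 whose counts summed to at least 60 over the 6 RNA libraries or over the 6 ribosome footprint libraries of the 6 h experiment. Chosen by these counts were 91 SNORA and 20 SCARNA genes of the 171 listed, out of 58219 genes in the RNA tables. The RNA sum admitted 99 members and the footprint sum 29, with 17 admitted by both. Just inside the limit in RNA stood SNORA15B-2 with 60 counts and SNORA22C with 63, and just outside it SNORA63D with 59 and SNORA29 with 57. For footprints the neighbours were SNORA32 with 71 and SCARNA1 with 72 inside, and SNORA67 with 57 and SCARNA22 with 55 outside, the last pair being members through their RNA. The rule used the 6 h counts, so that a member is measurable at 6 h is no finding.

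All groups were the same cell line. Cells received 2 nM actinomycin D (actD) or its vehicle DMSO for 6 h, for 72 h, or for 2 weeks. The 2-week groups went through 2 cycles of 7 days, in which exposure lasted 3 days and was followed by 4 days in medium without additive. Total RNA and ribosome-protected fragments were sequenced with 3 libraries per group, 36 in all. The 6 RNA libraries of the 2-week experiment carry titles that contradict their library names, so they are called here by library name (named actd or named dmso), and each direction drawn from them turns round if the titles are right. RNA was extracted with either of 2 kits and RNA libraries were made with either of 2 kits, per the labels, which do not say which library had which.

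Library totals were 40221994 to 69240041 counts for RNA and 152556 to 1281039 for footprints, so the precision in footprints is much lower. In RNA at 6 h the Wilms tumor genes WT1 (7.47 to 13.2 CPM, counts scaled to the depth of the library) and CDH6 (6.13 to 14.8) were counted in each library, SIX2, PAX2, CITED1 and SALL1 stayed at or below 0.695, and the immune gene PTPRC was listed at 0. COL1A1 had 438 to 538 CPM while its partner gene COL1A2 was listed at 0 in all 6 libraries. Whether such an exact 0 is absence of the RNA or a failed estimate was not tested. At 6 h the footprint libraries held 4.67% to 71.4% microRNA counts, and their scaling factors ran from 0.397 to 2.16. The third DMSO library at 72 h stood apart in both assays: its members took 0.0866% of RNA counts against 0.0222% and 0.0306% in the other two, and its footprint total was the lowest. The counts and named members of each 72 h comparison are also given without the library concerned. Host genes and gene lists are given with all libraries only.

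An H/ACA RNA folds into a pair of hairpins joined by a hinge (the H box, ANANNA) and ends in an ACA box shortly before its 3′ end. Each carries the proteins dyskerin (DKC1), NHP2, NOP10 and GAR1, and most pair with ribosomal RNA to place a pseudouridine, while a few, such as SNORA73A and SNORA73B (U17), act in ribosomal RNA cleavage. The Cajal body RNAs guide modification of spliceosomal small nuclear RNAs and may hold H/ACA domains, box C/D domains or both. In human cells nearly all are cut out of introns of host genes. Actinomycin D at low concentrations is known for blocking ribosomal RNA synthesis by RNA polymerase I.

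The following genes carry the results below. Their sequences are those of the GENCODE release 29 transcripts on GRCh38, written 5′ to 3′ with the ACA box that stands 3 bases from the 3′ end in capitals. The first pair shares a host and was higher with actD at 6 h, the third had more counts with actD in both assays and has no ACA box at that place, SCARNA21 and SCARNA13 had fewer RNA counts with actD, and SNORA61 and SCARNA15 had the highest footprint levels per kb in DMSO at 6 h.
SNORA73A: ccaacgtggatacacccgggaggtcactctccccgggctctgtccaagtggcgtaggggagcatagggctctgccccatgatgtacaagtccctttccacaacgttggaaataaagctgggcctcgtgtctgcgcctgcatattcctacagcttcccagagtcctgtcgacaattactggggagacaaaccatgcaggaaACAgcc
SNORA73B: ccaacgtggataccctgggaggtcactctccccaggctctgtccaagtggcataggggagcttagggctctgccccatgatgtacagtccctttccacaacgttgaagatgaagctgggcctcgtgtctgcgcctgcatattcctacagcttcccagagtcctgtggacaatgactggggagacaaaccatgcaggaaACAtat
SNORA53: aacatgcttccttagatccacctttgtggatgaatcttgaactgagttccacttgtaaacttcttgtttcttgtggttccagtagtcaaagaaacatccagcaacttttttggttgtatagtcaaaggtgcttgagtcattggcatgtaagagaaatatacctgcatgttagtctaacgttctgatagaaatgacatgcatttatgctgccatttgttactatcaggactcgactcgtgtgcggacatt
SCARNA21: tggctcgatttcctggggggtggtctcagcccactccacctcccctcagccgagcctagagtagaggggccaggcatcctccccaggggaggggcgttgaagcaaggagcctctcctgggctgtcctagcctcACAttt
SCARNA13: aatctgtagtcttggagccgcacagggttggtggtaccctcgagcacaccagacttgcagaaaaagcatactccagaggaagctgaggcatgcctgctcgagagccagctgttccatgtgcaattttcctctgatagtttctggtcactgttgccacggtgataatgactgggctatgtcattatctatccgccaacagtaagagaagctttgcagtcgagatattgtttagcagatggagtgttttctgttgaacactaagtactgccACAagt
SNORA61: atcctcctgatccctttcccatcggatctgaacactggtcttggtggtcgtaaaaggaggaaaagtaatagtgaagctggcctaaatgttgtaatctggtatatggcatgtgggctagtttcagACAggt
SCARNA15: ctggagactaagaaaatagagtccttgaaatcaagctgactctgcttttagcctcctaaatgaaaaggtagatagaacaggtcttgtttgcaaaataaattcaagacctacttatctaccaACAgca

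On GRCh38, SNORA73A lies at chr1:28507366-28507571 on the plus strand, within an annotated exon of the noncoding gene SNHG3, and SNORA73B at chr1:28508559-28508762 in an intron of it. They are 206 and 204 bases long and 93.1% identical over the shorter, so reads could be divided between them in counting. SNORA53 lies at chr12:98599635-98599883 on the plus strand in SLC25A3, the mitochondrial phosphate carrier gene, within an annotated exon. SCARNA21 lies in an intron of CHD3 at chr17:7906122-7906260 on the plus strand, and SCARNA13 in an intron of SNHG10 at chr14:95533355-95533629 on the minus strand. SNORA61 lies at chr1:28579764-28579893 on the minus strand, and SCARNA15 at chr15:82755945-82756071 on the plus strand within an annotated exon of SNHG21.

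Of the members, 56 SNORA and 14 SCARNA genes lay in an intron of a gene on the same strand, 32 and 6 overlapped an annotated exon of one, and 3 SNORA genes had no gene on their strand. Host genes numbered 87, 81 members had a protein-coding host, and 15 hosts held 2 or more members, 36 in all. SNORA lengths ran from 121 to 701 bases (median 134) and SCARNA lengths from 125 to 420 (median 143.5). The ACA box 3 bases from the 3′ end was present in 69 of 91 SNORA (75.8%) and 11 of 20 SCARNA genes (55.0%). It stood at that place in 3 of 74 box C/D genes (SNORD) with the same count sum (4.05%) and in 1 of 105 windows of the same lengths in host transcripts (0.952%). ACA anywhere in the last 6 bases was present in 83 of 91 SNORA (91.2%) and 14 of 20 SCARNA genes (70.0%). The SNORD genes had it in 9 of 74 (12.2%) and the windows in 7 of 105 (6.67%). ANANNA in the middle of the gene is short and was present in 97.8% of SNORA genes but also in 64.8% of those windows. The C box core TGATGA, read on the transcribed strand in the first part of the gene, was found in 0 SNORA genes, 6 of 20 SCARNA genes, 70.3% of SNORD genes and 0 windows. A match describes these letters only.

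**Figure D1:**
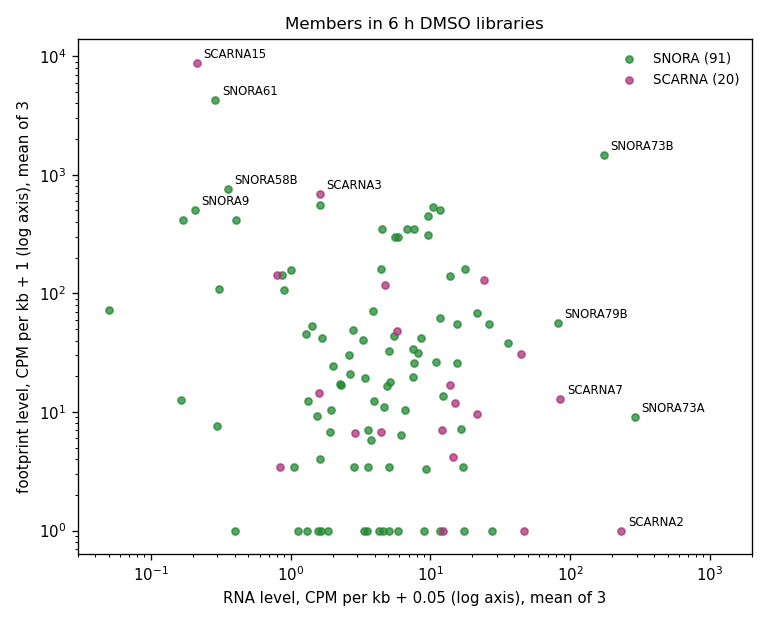
Level of each of the 91 SNORA and 20 SCARNA members in RNA (horizontal, CPM per kb plus 0.05, log axis) and in footprints (vertical, CPM per kb plus 1, log axis), each the mean of 3 DMSO libraries at 6 h, with SNORA in green and SCARNA in purple. SCARNA15 and SNORA61 head the footprints at the left edge of the RNA axis, SCARNA2 is high in RNA at 0 footprints, and SNORA73B is high in both.

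The members that led in RNA were mostly not those that led in footprints. Levels are CPM of the scaled library per kb of gene length, in the 3 DMSO libraries at 6 h. In RNA, SNORA73A led with 292 ± 61.9 (SD, n = 3), followed by SCARNA2 with 232 ± 34.6 and SNORA73B with 174 ± 6.68. SCARNA2 is a C/D-type guide of the U2 spliceosomal RNA. SNORA73A ran from 225 to 348 and SCARNA2 from 192 to 253, so these neighbours overlapped, and the lowest SCARNA2 library lay above the highest SNORA73B library (181). Next were SCARNA7 (85.1 ± 10.4) and SNORA79B (81.4 ± 3.22), whose ranges overlapped. SCARNA21 (47.1 ± 9.57), SCARNA13 (44.5 ± 5.33) and SNORA12 (36 ± 4.15) completed the 8 highest and overlapped each other. The 5 members with the most counts held 65.5% of the members' CPM, and the median member had 4.59 CPM per kb.

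In footprints SCARNA15 had 8798 ± 7466 CPM per kb and ranged from 183 to 13390, a range that takes in all 3 libraries of the next member. SNORA61 followed with 4244 ± 1157, its lowest library (3433) above the highest of SNORA73B (3189), then SNORA73B with 1480 ± 1561 and SNORA58B with 764.5 ± 557. SCARNA3 (686 ± 578), SNORA38B (560 ± 466), SNORA3B (534 ± 134) and SNORA9 (507 ± 248) came next, and neighbours from SNORA73B down to SNORA9 overlapped. Across all members, RNA levels in DMSO ranked alike at the 3 times (Spearman 0.804 to 0.871) and so did footprint levels (0.710 to 0.757). RNA against footprint levels gave Spearman values of -0.0873 to 0.113 over the same members, of which 82 were chosen by the RNA sum only and 12 by the footprint sum only. That rule by itself lowers the relation of the assays at 6 h, so nothing is read from these values. Points of one table share libraries, depth and gene length, and these are descriptions without a test.

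Several members were abundant in one assay and nearly unlisted in the other. The rule admitted a gene through either assay alone, so that such members exist at 6 h is no finding. SCARNA2 had 31502 RNA counts over the 6 libraries at 6 h, 4648 at 72 h and 26486 at 2 weeks, and it was listed at 0 in all 18 footprint libraries. SNORA73A had 37003, 38809 and 11498 RNA counts against 6, 4 and 11 footprint counts. Its near copy SNORA73B had 3116 footprint counts at 6 h alone. In the other direction SNORA61 had 2689, 4301 and 15469 footprint counts but 1 or 2 RNA counts in 16 of 18 libraries.
SCARNA15, SNORA32 and SNORA3A never passed 2 counts in any RNA library, and neither did SNORA75B, listed at 0 in each. The footprint libraries were cloned with a small RNA kit, and counts on these genes are not read here as translation. Whether the fragments came from the noncoding RNA itself or from an overlapping host transcript was not tested.

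RNA values of 1 or 2 that hardly varied between libraries were listed mostly for members within an annotated exon. Of the 38 exonic members, 6 were at 2 RNA counts or fewer in at least 15 of 18 libraries, against 0 of 70 intronic members. So was 1 of 3 members with no gene on their strand. Members this low in RNA entered through the footprint sum. These shares therefore describe the chosen genes, not exonic and intronic genes at large. Some exonic members also had 1 library far from the rest. SNORA70 was listed at 1 in 5 of the 6 RNA libraries at 6 h and at 571 in the third actD library, and at 2 weeks it had 236 in the third library named actd beside values of 1 or 2. SNORA61 had 285 RNA counts in the third DMSO library at 72 h, and it was also high in the second library named dmso at 2 weeks, with 1 or 2 elsewhere. SNORA73A had 9 in the second library named actd, beside 2087 and 1708. A library at least 10-fold above or below all 5 others of its table, on at least 30 counts, was found in RNA for 5 of 38 exonic and 1 of 70 intronic members. How the counting program divides reads between overlapping genes is not given in the sources used here, and its part in these values was not tested.

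**Figure D2:**
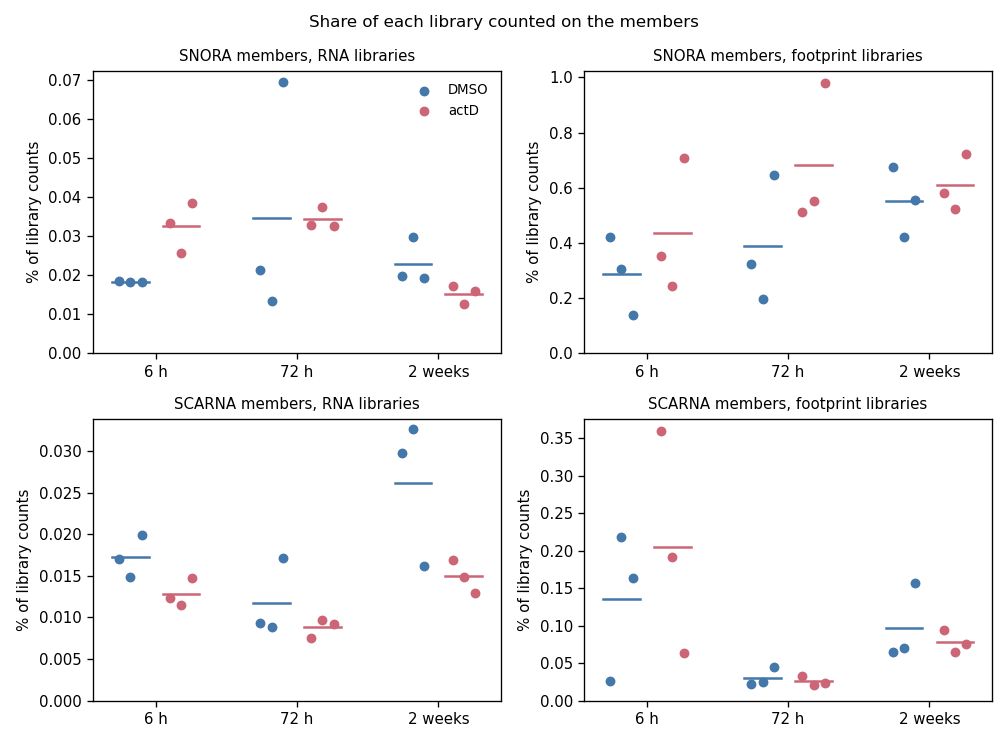
Percent of all counts of a library that fell on the 91 SNORA (top) and 20 SCARNA members (bottom), in RNA (left) and footprint libraries (right), by time, with DMSO in blue and actD in red; points are libraries and bars means of 3, with the 2-week RNA libraries by library name. At 6 h the SNORA share of RNA lies higher and the SCARNA share lower in each actD library than in any DMSO library.

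After 6 h of actD the SNORA genes together took a larger share of the RNA libraries and the SCARNA genes a smaller one, and a few members carried most of both differences. The SNORA share was 0.0184%, 0.0183% and 0.0183% in DMSO and 0.0335%, 0.0257% and 0.0386% in actD, and the groups did not overlap. The SCARNA share was 0.0170%, 0.0148% and 0.0200% in DMSO and 0.0124%, 0.0115% and 0.0147% in actD, also without overlap. The U17 pair SNORA73A and SNORA73B alone took 0.0102%, 0.00960% and 0.00868% in DMSO and 0.0225%, 0.0161% and 0.0272% in actD. The other 89 SNORA genes took 0.00826%, 0.00871% and 0.00960% in DMSO and 0.0109%, 0.00957% and 0.0114% in actD, so their groups overlapped. SCARNA2 took 0.00987%, 0.00802% and 0.0114% in DMSO and 0.00589%, 0.00622% and 0.00854% in actD, and the other 19 SCARNA genes 0.00711%, 0.00679% and 0.00859% against 0.00647%, 0.00529% and 0.00616%, without overlap. Box C/D genes took 0.0840% ± 0.00196 in DMSO and 0.115% ± 0.0226 in actD (SD, n = 3). Their libraries ran from 0.0818% to 0.0856% in DMSO and from 0.0948% to 0.139% in actD. They too had a larger share, without overlap, so this is not particular to the SNORA genes. In bulk RNA, fewer cells with an RNA and less RNA per cell cannot be told apart.

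**Figure D3:**
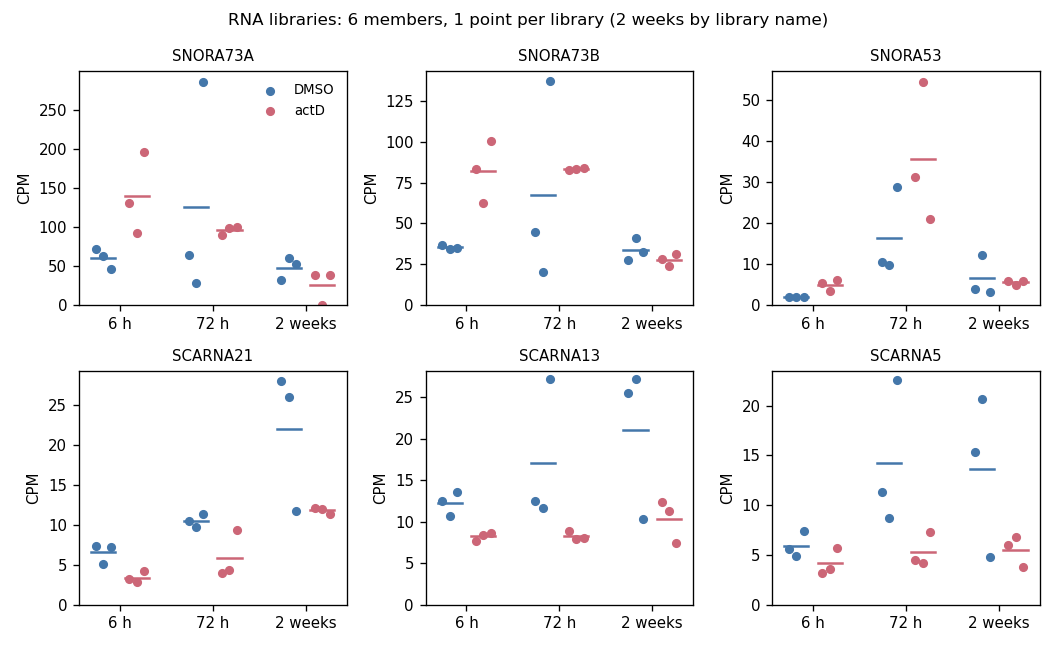
CPM in each RNA library of 6 members at 6 h, 72 h and 2 weeks, with DMSO in blue, actD in red and bars for the means of 3; the 2-week groups follow library names. SNORA73A, SNORA73B and SNORA53 lie higher in all 3 actD libraries at 6 h, SCARNA21 and SCARNA13 lie lower at 6 h and 72 h, and the third DMSO library at 72 h lies far above its group in most panels.

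Single members lay on both sides at 6 h, though none passed an adjusted p of 0.05 in edgeR's quasi-likelihood test (Benjamini-Hochberg over all genes), which called 0% of 22669 genes. SNORA73B had 37.0, 34.5 and 34.9 CPM in DMSO and 83.1, 62.6 and 100.3 CPM in actD. The groups did not overlap, and the log2 fold change was 1.21 (SE 0.171, adjusted p = 0.0982 in edgeR). SNORA53 had 1.96, 1.87 and 1.88 CPM in DMSO and 5.33, 3.47 and 6.15 in actD, again apart, with a log2 fold change of 1.39 (SE 0.238, adjusted p = 0.176). SNORA73A, the other U17 copy, had 71.7, 62.2 and 46.4 CPM in DMSO and 130.3, 92.7 and 196.2 in actD. Its log2 fold change was 1.22 (SE 0.276, adjusted p = 0.336). DESeq2 put all of these past the threshold, with adjusted p of 8.79e-07 for SNORA73B, 0.000138 for SNORA53 and 0.00206 for SNORA73A.

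Of the 18 tested Cajal body RNAs, 4 had an unadjusted p under 0.05, 2 lower and 2 higher in actD. SCARNA21 had 7.38, 5.02 and 7.26 CPM in DMSO and 3.16, 2.78 and 4.17 in actD, without overlap, for a log2 fold change of -0.96 (SE 0.227, adjusted p = 0.364 in edgeR and 0.0210 in DESeq2). SCARNA13, named after its values were seen, had 12.5, 10.7 and 13.6 CPM in DMSO and 7.64, 8.45 and 8.58 in actD (log2 fold change -0.58, SE 0.143, adjusted p = 0.409). SCARNA2 had 105.5, 80.8 and 106.4 CPM in DMSO and 55.8, 59.9 and 93.0 in actD, where 1 actD library lay inside the DMSO range (log2 fold change -0.49, SE 0.212). The higher ones, also named after their values were seen, were SCARNA16 with 2.15, 2.41 and 2.32 CPM in DMSO against 3.13, 2.90 and 3.10 in actD (0.41, SE 0.174), and SCARNA20, whose 1.49 (SE 0.583) rested on 9, 8 and 3 counts against 11, 20 and 23. Both were without overlap. As a group, 12 of 18 tested SCARNA genes had a log2 fold change below 0, with a median of -0.19, and 49 of 79 tested SNORA genes had one above 0, with a median of 0.15. The median over all genes tested was 0.02.

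Counted over both classes, 19 of 97 tested members (19.6%) had an unadjusted p under 0.05 at 6 h, against 8.21% of all genes tested. Of these, 16 were higher and 3 lower in actD, against 3.67% and 4.54% of all genes. The SNORD genes with the same count sum gave 5 of 62. Groups did not overlap for 21 members higher and 5 lower in actD, against 15.8% of all genes in both directions (7.66% higher, 8.17% lower). The 97 are members that passed a filter on low counts, not all of them. DESeq2 called 4 members at an adjusted p of 0.05, the 4 named above by their lowest p. The share of all genes that DESeq2 called is not reported here. Its calls, at this or any other time, are therefore not read as particular to the members. The count with an unadjusted p under 0.05 was 11 without the first DMSO library and 9 without the second or the third, where 5.94% and 9.05% of all genes had one.

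**Figure D4:**
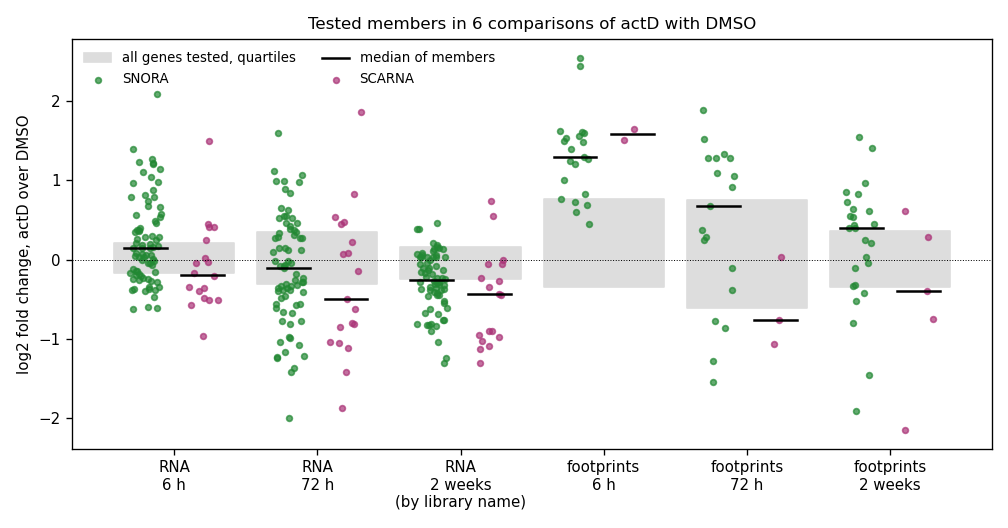
Log2 fold change of actD over DMSO (vertical) for each tested SNORA (green) and SCARNA member (purple) in RNA and footprints at 3 times, with the median of each class as a black bar and the quartiles of all genes tested as a gray box. All 23 members tested in footprints at 6 h lie above 0, and the SCARNA medians lie below the SNORA medians in each RNA comparison.

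At 72 h the class result differed with 1 library. None of 94 tested members passed in edgeR, where 0.00472% of 21195 genes did. An unadjusted p under 0.05 was found for 14 members (14.9%), 6 higher and 8 lower, against 13.1% of all genes (5.27% higher, 7.78% lower), so the members' share was near the background. The log2 fold change was above 0 for 39 of 94 members and 51.4% of all genes. Groups were apart for 7 members higher and 8 lower, against 20.9% of all genes. The members' median log2 fold change was -0.16, and it was 0.27 without the third DMSO library, with the sign reversed. An unadjusted p under 0.05 was then found for 19 of 95 members, 14 higher and 5 lower, against 16.7% of all genes. That count was 9 without the first DMSO library, and 7 and 6 without the first and the second actD library. DESeq2 called 3 members: SNORA17B, SNORA2B and SCARNA5.

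SNORA17B, in an exon of SNHG7, had 7.74, 4.31 and 7.87 CPM in DMSO and 3.23, 2.24 and 2.93 in actD (log2 fold change -1.25, SE 0.320, adjusted p = 0.263 in edgeR and 0.0202 in DESeq2). It has a near-identical copy among the gene models, so its counts are uncertain. SNORA2B, in an intron of KANSL2, had 1.65, 1.39 and 1.23 CPM in DMSO and 2.71, 3.01 and 2.75 in actD (log2 fold change 0.99, SE 0.267). SNORA14B, in TOMM20, had 0.480, 0.331 and 0.666 CPM against 1.88, 1.81 and 0.828 (1.60, SE 0.439). These groups were apart as well, though the third actD library of SNORA14B lay close to DMSO. Their log2 fold changes were -1.11, 0.89 and 1.89 without the third DMSO library.
SCARNA5, a Cajal body RNA from an intron of the autophagy gene ATG16L1, had 11.4, 8.66 and 22.6 CPM in DMSO and 4.51, 4.21 and 7.27 in actD (log2 fold change -1.41, SE 0.410, adjusted p = 0.276 in edgeR and 0.0407 in DESeq2), and -0.91 (SE 0.308) without the third DMSO library. SCARNA21 had -0.84 (SE 0.357) and SCARNA13 had -1.06 (SE 0.351), and both stayed without overlap between groups, as at 6 h. Without that library they had -0.80 (SE 0.406) and -0.56 (SE 0.182).
SNORA73A had 63.8, 27.8 and 284.9 CPM in DMSO at 72 h and 89.5, 98.3 and 100.5 in actD, SNORA73B had 44.7, 20.1 and 137.3 against 82.9, 83.0 and 83.9, and SNORA53 had 10.6, 9.79 and 28.7 against 31.2, 54.4 and 21.0. The groups overlapped through the third DMSO library, with log2 fold changes of -0.39, 0.31 and 1.12. Without it all of them were higher in actD without overlap, with 1.06 (SE 0.360, adjusted p = 0.243 in edgeR), 1.36 (SE 0.349, adjusted p = 0.181) and 1.80 (SE 0.425, adjusted p = 0.162), so the sign turned for SNORA73A. SCARNA2 had 610 and 817 counts in the first and second DMSO libraries, 1138 and 2083 in the same actD libraries, and was listed at 0 in the third library of both groups.

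After 2 weeks 66 of 88 tested members had a log2 fold change below 0 in the libraries named actd against those named dmso. None of them passed in edgeR, where 0% of 21137 genes did, and DESeq2 called 0. An unadjusted p under 0.05 was found for 16 members (18.2%), all lower in the libraries named actd, against 8.93% of all genes and 4.93% in that direction. Of these, 8 were SCARNA genes, of 18 tested: SCARNA1, SCARNA2, SCARNA5, SCARNA6, SCARNA10, SCARNA13, SCARNA21 and SCARNA22. The log2 fold change was below 0 for 16 of 18 SCARNA genes and 50 of 70 SNORA genes, with medians of -0.43 and -0.26 against -0.02 for all genes, of which 46.8% were above 0. Groups were apart for 0 members higher and 10 lower, against 7.86% and 7.83% of all genes. Without the first library named actd 6 members had an unadjusted p under 0.05, and without the second library named dmso 3, against 5.94% of all genes. By the titles, these directions are the opposite.

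The individual values show where that comparison is weak. SCARNA21 had 28.0, 26.0 and 11.7 CPM in the libraries named dmso and 12.04, 11.97 and 11.3 in those named actd, so the third library named dmso was at the level of the other group. SCARNA13 (25.6, 27.2 and 10.4 against 12.4, 11.3 and 7.43) and SCARNA5 (15.3, 20.7 and 4.78 against 5.96, 6.77 and 3.77) had the same shape. The 4 members with the lowest p did not overlap between groups. SNORA57, in an exon of CSKMT, had 5.196, 6.59 and 4.87 CPM against 4.01, 3.61 and 3.30 (log2 fold change -0.61, SE 0.183, adjusted p = 0.449 in edgeR). SNORA80A (-1.30, SE 0.414), SNORA79B (-0.44, SE 0.142) and SNORA17B (-0.82, SE 0.267) had adjusted p of 0.470, 0.477 and 0.482. SNORA79B ran from 23.8 to 32.2 CPM in the libraries named dmso and from 19.0 to 20.8 in those named actd. SNORA73A was not among them, with 1 library at 9 counts and a log2 fold change of -0.89 (SE 1.11).

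The difference of the actD effect in RNA between 72 h and 6 h was tested in an interaction model of both tables. None of 102 tested members passed in edgeR (0.0165% of 24251 genes did) or in DESeq2, and 7 (6.86%) had an unadjusted p under 0.05, against 7.94% of all genes. That count rested on single libraries: it was 24 of 103 without the second DMSO library at 72 h, 23 of them lower, against 10.8% of all genes, and 12 without the third, against 10.5%. It was 11 without the second actD library at 6 h or the first DMSO library at 72 h, and 12 without the third actD library at 72 h. The median moved from -0.28 to -0.41 without the second and to 0.12 without the third DMSO library at 72 h. Lowest in p were SNORA2B (log2 difference 1.16, SE 0.381), SNORA47 (-1.76, SE 0.601), SNORA17B (-1.10, SE 0.385) and SNORA74D (-1.02, SE 0.385), with adjusted p of 0.506 to 0.568. Leaving out the third DMSO library at 72 h, these were 1.06, -1.58, -0.96 and -0.73. SNORA2B is the clearest by its values: in RNA at 6 h it had 0.864, 0.831 and 0.841 CPM in DMSO against 0.924, 0.492 and 0.834 in actD, groups that overlap, and at 72 h the groups were apart. SNORA47 rested on 8 to 36 counts per library. Which library had which extraction kit is not given, so whether levels at different times also differ by kit cannot be told. No test across time used the RNA libraries of the 2-week experiment because of their labels.

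In the footprint libraries at 6 h all 23 tested members had a log2 fold change above 0, with a median of 1.39, against 56.8% of 1212 genes and a median of 0.11. None passed in edgeR, where 0% of genes did. An unadjusted p under 0.05 was found for 4 members (17.4%), all higher, against 3.14% of genes (1.24% higher, 1.9% lower). Groups were apart for 7 members, all higher, against 9.32% of genes (3.71% higher, 5.61% lower). The SNORD genes with the same sum had a median of 1.02, with 21 of 25 above 0. The median of the members was 0.77 with library totals in place of the scaling factors, and no member then had an unadjusted p under 0.05. It was 0.65 without the third actD library, the lowest value with 1 library left out, and 0 members had an unadjusted p under 0.05 without the first DMSO library. The share of microRNA counts in these libraries was 4.67%, 45.1% and 60.8% in DMSO and 71.4%, 58.5% and 16.1% in actD, and its part in the members' result was not tested.

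SNORA53 was the member with the lowest p, and it was higher in RNA too. Its footprint level at 6 h was 52.3, 64.2 and 144.6 CPM in DMSO and 703.3, 392.5 and 421.2 in actD, from 52 to 58 and 156 to 358 counts, without overlap (log2 fold change 2.54, SE 0.738, adjusted p = 0.889 in edgeR and 0.00653 in DESeq2). SNORA71D, from SNHG17, had 22.3, 29.6 and 12.5 CPM against 96.3, 32.7 and 72.7 (1.62, SE 0.536). SNORA66, from an intron of the ribosomal protein gene RPL5, had 34.9, 50.6 and 32.4 CPM against 55.0, 88.1 and 198.8 (1.53, SE 0.595). SNORA64, from the ribosomal protein gene RPS2, had 6.78, 34.6 and 22.4 CPM against 92.3, 37.7 and 64.1 (1.61, SE 0.657). In each of these the groups were apart, and in the last the nearest values of the groups rested on 28 and 15 counts.

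**Figure D5:**
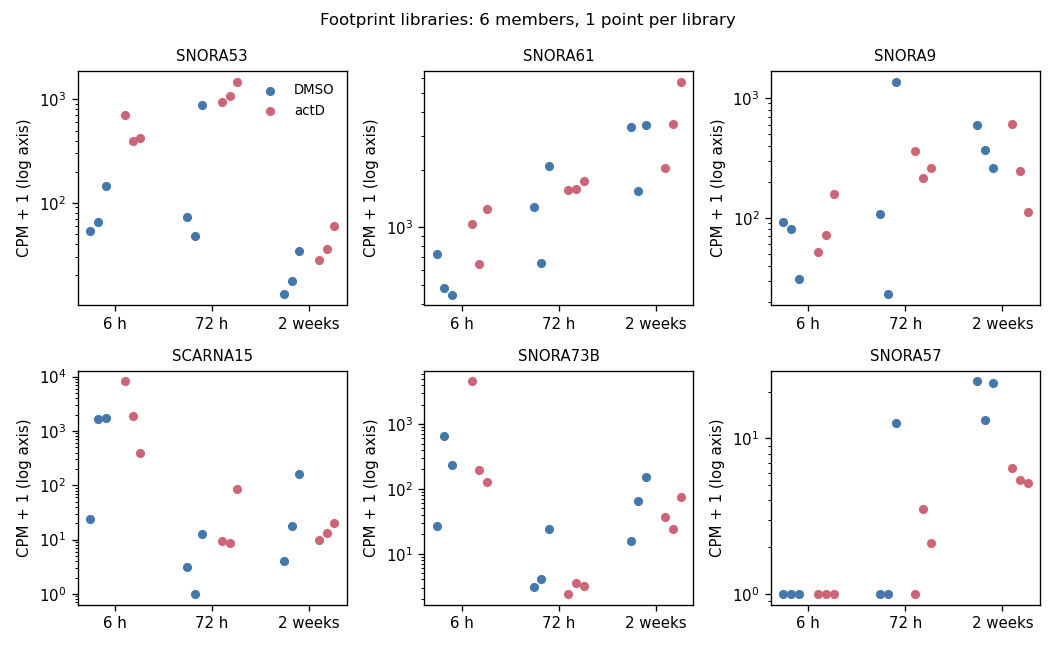
CPM plus 1 (log axis) in each footprint library of 6 members at 6 h, 72 h and 2 weeks, with DMSO in blue and actD in red, 3 libraries per group. SNORA53 lies higher in actD without overlap at 6 h and 72 h, SCARNA15 and SNORA73B vary over a wide range among the 6 h libraries, and SNORA57 lies lower in actD at 2 weeks.

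At 72 h the footprints again depended on the third DMSO library. None of 22 tested members passed in edgeR, against 3.83% of 2426 genes (2.23% lower), and none in DESeq2. An unadjusted p under 0.05 was found for 1 member (4.55%), SCARNA22, against 27.3% of genes. Without the third DMSO library it was found for 14 of 23 members, 12 higher and 2 lower, against 28.3% of 3207 genes, and the median log2 fold change was 2.13 in place of 0.33. It was found for 0 members without the first DMSO library, and for 2 without the second DMSO, the second actD or the third actD library. SCARNA22 had 33.8, 25.1 and 46.6 CPM in DMSO and 15.4, 15.3 and 15.6 in actD (log2 fold change -1.07, SE 0.362, adjusted p = 0.115; -0.90 without that library), from 4 to 16 counts per library. SNORA53 had 71.9, 47.0 and 873.4 CPM in DMSO and 948.8, 1075 and 1480 in actD, apart once more (1.88, SE 1.06, adjusted p = 0.275). Without the third DMSO library its log2 fold change was 4.32 (SE 0.510, adjusted p = 0.0405), and 4 members passed, all higher in actD, with SNORA75 among them (2.77, SE 0.346), against 1.71% of all genes. On simulated tables of the 72 h footprints the test also called genes that had not been changed. With all libraries SNORA75, from an intron of the nucleolin gene NCL, had 16.9, 12.5 and 139.7 CPM in DMSO and 99.2, 96.6 and 104.5 in actD (1.29, SE 0.822). SNORA38B had 194.5, 62.7 and 885.1 CPM against 125.8, 83.9 and 164.6 (-1.55, SE 0.875), and -0.02 without that library.

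After 2 weeks 31 members were tested in footprints, whose labels hold no contradiction. None passed in edgeR, where 0% of 1598 genes did, or in DESeq2, and 4 (12.9%) had an unadjusted p under 0.05, 2 in each direction, against 8.64% of genes. SNORA57 had 22.3, 12.1 and 21.8 CPM in DMSO and 5.42, 4.44 and 4.21 in actD, from 14 or 15 and 3 to 5 counts (log2 fold change -1.91, SE 0.412, adjusted p = 0.517). SNORA51, from the gene of the C/D core protein NOP56, had 19.4, 23.4 and 21.8 CPM against 10.9, 7.76 and 4.21 (-1.45, SE 0.335). Both were apart between groups. SNORA3A, from RPL27A, had 22.3, 21.6 and 13.1 CPM against 40.1, 39.9 and 89.7 (1.55, SE 0.443), also apart. SNORA1, from TAF1D, had 8.94, 13.9 and 7.26 CPM against 19.5, 13.3 and 25.2, which overlapped (0.85, SE 0.363).

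Footprint changes were set against RNA changes in a model of both assays. None of the 15, 17 and 22 members tested at 6 h, 72 h and 2 weeks passed in edgeR, where 0%, 1.04% and 0% of genes did, or in DESeq2. An unadjusted p under 0.05 was found at 6 h for 5 members (33.3%), all higher in footprints, against 4.63% of 951 genes, at 72 h for 0 against 15.4% of 2311, and at 2 weeks for 2 against 5.41% of 1441. These counts rested on single libraries. At 72 h 9 of 18 members had one without the third DMSO footprint library, 8 of them higher, against 17.4% of 3081 genes, and the median log2 difference was 1.91 in place of 0.50; without the third DMSO RNA library it was 1. At 6 h the count was 0 without the first DMSO or the third actD footprint library, and at 2 weeks it ran from 0 to 3 with 1 library left out, at 0 without the second or the third actD footprint library. SNORD genes gave 9 of 19 at 6 h. At 6 h the lowest p belonged to SNORA66 (log2 difference 1.68, SE 0.606), SNORA71B (1.33, SE 0.489), SNORA64 (1.85, SE 0.705) and SNORA8 (1.21, SE 0.533), with adjusted p of at least 0.819. SNORA66 shows what the difference holds: in RNA it had 0.849, 0.846 and 0.514 CPM in DMSO and 0.584, 0.666 and 0.732 in actD, which overlap, while its footprints were apart.
At 72 h SNORA21 (-2.23, SE 1.54), SNORA71A (1.17, SE 0.879), SNORA71D (1.51, SE 1.18) and SNORA38 (1.15, SE 0.998) had the lowest p, and SNORA21 turned to 1.99 without the third DMSO footprint library, where it had 989.9 CPM beside 21.2 and 9.40. The others had 2.42, 2.02 and 1.82 without it. At 2 weeks SNORA57 had -1.35 (SE 0.529), SNORA71A 1.07 (SE 0.467), SNORA74B 1.28 (SE 0.636) and SNORA38 1.03 (SE 0.610), values whose RNA side follows the library names. By the titles SNORA57 had -2.57 (adjusted p = 0.0311 in edgeR), the 1 member then past the threshold.

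Between times the footprint effects of single members were too variable for a call. None of 31 tested members passed for 72 h against 6 h in edgeR (0% of 3012 genes did) or DESeq2, and 0 had an unadjusted p under 0.05, against 5.84% of genes; without the third DMSO library at 72 h 3 of 36 did, against 6.18%. SNORA21 (log2 difference -4.24, SE 2.09), SNORA58B (-2.14, SE 1.16), SNORA38B (-2.34, SE 1.32) and SNORA73B (-3.97, SE 2.36) had the lowest p, and they had 0.17, -0.88, -0.77 and -2.72 without that library. SNORA73B had 27, 527 and 92 footprint counts in DMSO and 2333, 77 and 60 in actD at 6 h, and 1 or 2 counts in each library at 72 h, so its value rested on 1 actD library at 6 h. For 2 weeks against 72 h, none of 34 passed (0.0532% of 3760 genes did), with 2 members at an unadjusted p under 0.05 (5.88%) against 7.95%. Without the third DMSO library at 72 h it was 16 of 40, 15 of them lower at 2 weeks than at 72 h, against 9.67% of 4758 genes, and the median log2 difference moved from -0.09 to -1.58. SNORA74B had 3.32 (SE 1.06, adjusted p = 0.461) and SCARNA15 had -5.95 (SE 2.18, adjusted p = 0.539). SCARNA16 (-5.94, SE 2.74) rested on 201 counts in the second DMSO library at 2 weeks, beside 0 or 1 in the others, and SNORA38B had 1.95 (SE 0.986). These had 3.49, -6.83, -7.14 and 0.41 without the third DMSO library at 72 h.

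The footprint counts of some members at 6 h were lowest in the libraries with the least microRNA and highest in that with the most. SCARNA15 (ACA45) is a known source of a microRNA-like small RNA. It had 24, 1319 and 682 footprint counts in DMSO and 4189, 759 and 181 in actD at 6 h. The fewest were in the library with the smallest microRNA share (4.67%), the next fewest in that with 16.1%, and the most in that with 71.4%. Between them the order was the opposite, with 1319 counts at a share of 45.1%, 759 at 58.5% and 682 at 60.8%. SCARNA3, whose sequence holds the mature miR-1843, had 3, 113 and 61 against 316, 68 and 19, and SNORA36B had 1, 67 and 32 against 204, 29 and 9, named here after their values were seen. Highest, lowest and next lowest were the same libraries in all of them and in SNORA73B, whose counts are given above. The library with the most also had the largest total, 1281039 counts against 363273 to 697435. Among the 2-week libraries SCARNA15 had its lowest count, 2, at the smallest microRNA share (1.87%) and its highest at the largest (8.66%). At 72 h it had its highest count, 76, at 2.80%, and 1 and 0 at the largest shares of 5.89% and 4.00%. What sets these counts was not tested.

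The overlap can be read from the sequences. The mature arms below are from RefSeq (GRCh38.p14), with the seed (bases 2 to 8) in capitals, and each gene below them carries its arms in capitals.
hsa-miR-664a-5p: aCUGGCUAgggaaaaugauuggau
hsa-miR-664a-3p: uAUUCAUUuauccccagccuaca
SNORA36B: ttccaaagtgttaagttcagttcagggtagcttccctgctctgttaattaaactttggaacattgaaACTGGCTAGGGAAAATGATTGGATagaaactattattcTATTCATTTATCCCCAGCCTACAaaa
SCARNA16: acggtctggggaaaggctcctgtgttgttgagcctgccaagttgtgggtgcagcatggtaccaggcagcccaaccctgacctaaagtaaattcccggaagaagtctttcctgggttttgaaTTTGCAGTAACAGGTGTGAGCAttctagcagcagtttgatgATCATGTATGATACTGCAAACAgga
SNORA36B lies at chr1:220200546-220200676 on the minus strand and SCARNA16 at chr17:77089307-77089493 on the plus strand. In both genes the 3′ arm ends with the ACA box. SNORA36B had 342 footprint counts at 6 h while its microRNA gene MIR664A was listed at 0. SCARNA16 had 0, 98 and 205 footprint counts at the 3 times, against 29, 2 and 20 for MIR6516. Reads of an arm could be counted for either gene, and the tables do not tell which.

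Over all members with a tested host, the fold changes of members and of their host genes were nearly unrelated. Over 94 members with a tested host at 6 h the Pearson correlation of log2 fold changes was -0.0223, over 93 at 72 h 0.106 and over 85 at 2 weeks -0.000969; members of 1 host share a value. The signs were the same for 43, 53 and 46 of them. At 72 h the intronic members alone had a correlation of 0.21, with the same sign for 43 of 65. The exonic ones had -0.118, with the same sign for 10 of 28. Intronic and exonic members had -0.0666 and 0.0163 at 6 h, and -0.0094 and 0.0248 at 2 weeks. SNHG3, the host of the U17 pair, had -0.11 (SE 0.164) at 6 h beside 1.22 and 1.21 for SNORA73A and SNORA73B. SLC25A3 had 0.07 (SE 0.121) beside 1.39 for SNORA53, CHD3 0.02 (SE 0.139) beside -0.96 for SCARNA21, and ATG16L1 -0.33 (SE 0.198) beside -1.41 for SCARNA5 at 72 h. These hosts are named after their members' values were seen. SCARNA5 and SCARNA6, both from ATG16L1, lay between -0.51 and -0.40 at 6 h, -1.41 and -1.11 at 72 h (-0.91 and -0.17 without the third DMSO library) and -1.30 and -1.08 at 2 weeks.

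Proteins that bind, build or trim H/ACA RNAs were followed as a list of 15 tested genes at 6 h. None passed in edgeR at any time; 3 were lower and 0 higher at an unadjusted p under 0.05 at 6 h, 2 of 14 were lower at 72 h, and 1 of 14 was lower at 2 weeks in the libraries named actd. These shares were 20% at 6 h, against 8.21% of all genes, 14.3% at 72 h, near the 13.1% of all genes, and 7.14% at 2 weeks, below the 8.93%. At 6 h the lowest p belonged to TERT, telomerase reverse transcriptase (log2 fold change -1.54, SE 0.526, adjusted p = 0.556), and EXOSC10, a nuclear exosome nuclease (-0.40, SE 0.147). At 72 h they were PARN, which trims the 3′ end of H/ACA RNAs (-1.04, SE 0.198, adjusted p = 0.199), and NOLC1, a nucleolar and Cajal body phosphoprotein (-1.03, SE 0.269, adjusted p = 0.263). Of the 14 genes 13 had a log2 fold change below 0 at 72 h, with a median of -0.37. Among all genes tested it was 10296 of 21195, with a median of 0.018. These 72 h values include the third DMSO library. The core proteins DKC1, NHP2, NOP10 and GAR1, named after their values were seen, lay between 0.00 and 0.15 at 6 h. At 2 weeks TERT (-0.92, SE 0.383) and TENT4B, which adenylates H/ACA RNA ends (0.32, SE 0.180), had the lowest p.

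The Cajal body list, with SMN complex and Sm proteins, had 2 of 23 lower at an unadjusted p under 0.05 at 6 h, 2 at 72 h and 1 at 2 weeks, and 0 higher. These shares of 8.7%, 8.7% and 4.35% were near or below those of all genes. GEMIN5 (-0.36, SE 0.152) and GEMIN8 (-0.44, SE 0.190) had the lowest p at 6 h, SMN2 (-0.71, SE 0.285, with the near copy SMN1) and NPAT (-0.46, SE 0.191) at 72 h, and DDX20 (-0.28, SE 0.123) and SNRPF (0.27, SE 0.154) at 2 weeks. The scaffold COIL had 0.04 at 6 h and WRAP53, which carries scaRNAs to Cajal bodies, had -0.19, both named after their values were seen. The box C/D proteins had 0 of 9 at 6 h and 2 weeks and 2 of 9 lower at 72 h, fibrillarin FBL (-0.79, SE 0.246) and NOP58 (-0.72, SE 0.302), a share of 22.2% against 13.1% of all genes. RPAP3 (0.20, SE 0.160) and ZNHIT6 (0.12, SE 0.117) had the lowest p at 6 h, and NOP58 (-0.30, SE 0.182) and FBL (0.14, SE 0.111) at 2 weeks. Among 12 stand-alone pseudouridine synthases, which work without a guide RNA, 2 were lower at 6 h, PUS1 (-0.43, SE 0.121) and PUSL1 (-0.42, SE 0.148), 0 at 72 h and 1 at 2 weeks, PUSL1 (-0.45, SE 0.150), shares of 16.7%, 0% and 8.33% against 8.21%, 13.1% and 8.93% of all genes. PUSL1 (-0.47, SE 0.274) and RPUSD4 (-0.27, SE 0.173) had the lowest p at 72 h, and RPUSD2 (-0.24, SE 0.149) came after PUSL1 at 2 weeks.

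The remaining Cajal body RNAs are given by level, as CPM per kb in the DMSO RNA libraries at 6 h. SCARNA22 (24.1 ± 3.38), SCARNA5 (21.5 ± 4.73), SCARNA11 (14.9 ± 2.87), SCARNA6 (14.5 ± 1.93), SCARNA12 (13.9 ± 9.94), SCARNA16 (12.3 ± 0.731) and SCARNA10 (12.2 ± 3.25) formed a middle class whose neighbours overlapped. SCARNA4 (5.71 ± 0.856), SCARNA1 (4.72 ± 1.31), SCARNA17 (4.39 ± 0.352), SCARNA23 (2.83 ± 0.794), SCARNA3 (1.56 ± 0.837), SCARNA18 (1.55 ± 0.783), SCARNA20 (0.791 ± 0.380), SCARNA8 (0.754 ± 0.537) and SCARNA15 (0.164 ± 0.0720) followed. SCARNA8 and SCARNA15, the lowest in RNA, had 141 and 8798 CPM per kb in footprints. The median SCARNA gene had 12.2 CPM per kb in RNA and the median SNORA gene 4.41, and in footprints 11.3 and 23.5.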

How the data were processed

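The authors deposited 1 table per assay and time with a whole-number estimated count per gene and library. Reads were handled with HISAT2 and StringTie on hg38, per the submitters' processing notes. The counting program, annotation, use of strand and treatment of reads that map to several places are not given in the sources used here. Ids without version matched GENCODE release 29 for 99.4% of genes (94.6% and 93.5% with version). Members and gene lists were chosen with earlier results of these data known.

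Each comparison was fitted on its whole table with edgeR 4.0.16 (R 4.3.3, limma 3.58.1) by the quasi-likelihood test after a filter on low counts and TMM scaling, with Benjamini-Hochberg adjustment over all genes tested and a threshold of 0.05. CPM are counts scaled to the depth of the library after TMM, and SE is the absolute log2 fold change divided by the square root of F. DESeq2 1.42.0 was an alternative, beside library totals, other filters and leaving out each library. The procedure was tested on simulated data with known changes: it recovered most of them in each RNA comparison within a time, fewer in the other comparisons, and none in the footprints at 6 h or for footprints at 2 weeks against 72 h, and most of its false calls fell in the 72 h footprints and in the RNA effect at 72 h against 6 h. The named members are those past the threshold, the 4 with the lowest p per comparison, the 8 highest per kb in each assay at 6 h, each SCARNA gene by level and the neighbours of the count limit. For each list the 2 genes with the lowest p were named. The labels do not say whether libraries came from separate cultures, so p-values measure the spread between these libraries, which may be technical. RNA and footprints were tested within their own tables except in the models named as joint. The 2-week RNA groups follow library names, which contradict the titles.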

Additional observations from a re-analysis of the deposited data

Results flagged for a closer look

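Some members lay on one side of DMSO in all 3 actD libraries at 1 time and on the other side at 2 weeks, where the RNA groups follow library names; the difference itself was not tested, and its direction depends on labels that contradict each other. Between 6 h and 2 weeks the log2 fold changes were 0.534 and -1.035 for SNORA14B, 0.787 and -1.24 for SNORA22, and 0.68 and -0.84 for SNORA54. SNORA79B had 0.187 and -0.441, and SNORA80A had 0.961 and -1.301. Between 72 h and 2 weeks SNORA14B had 1.596 and -1.035, and SNORA50C had 0.631 and -0.681. Among all genes tested, groups were apart and higher for 1737 of 22669 at 6 h and 2233 of 21195 at 72 h. They were apart and lower for 1655 of 21137 at 2 weeks. How many of all genes turned in this way was not counted, so these turns are not read as particular to the members.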

How the results depend on the processing

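With edgeR, 0 members passed in each of the 12 comparisons, and 188 of 194 alternative counts were equal to that. DESeq2 called 4 RNA members at 6 h, 3 at 72 h, and 1 footprint member at 6 h, and its share over all genes is not reported here. Leaving out 1 library gave 0 to 1 calls in RNA at 2 weeks (1 without the third library named dmso) and 0 to 4 in footprints at 72 h (4 without the third DMSO library). With labels by title, 1 member passed for footprints relative to RNA at 2 weeks, and in RNA at 2 weeks SNORA57 had 0.609, SNORA80A 1.301, SNORA79B 0.441 and SNORA17B 0.824, since the groups change places; SNORA74B relative to RNA had -0.34. Without the third DMSO footprint library at 72 h, SNORA21 had 1.991 relative to RNA and 0.166 for 72 h against 6 h, the highest values with 1 library left out, where the lowest were -2.823 and -4.747; the cause was not tested. Of 680 alternative values of single members, 662 kept direction and side, 11 were newly called, 7 reversed and 0 were lost. In none of the 6 tables did all same-numbered actD and DMSO libraries deviate together by a correlation over 0.1 (RNA at 6 h -0.145 to -0.0403, at 72 h 0.0688 to 0.259). RNA and footprint libraries of 1 number did so in actD at 72 h (0.182 to 0.422) and in DMSO at 2 weeks (0.106 to 0.133) but not in the other group of either time, so whether numbers mark shared cultures was not settled. A fit with the replicate block called 0 members in all 12 comparisons. Footprint depth limits the tests to 22 to 34 members within that assay.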
